A study of Rattus norvegicus with 3 samples.

Results

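The genes described here encode the extracellular matrix of perineuronal nets and the tenascins that bind to it: Acan, Bcan, Ncan, Vcan, Hapln1, Tnr, Tnc and Has2. They were chosen by name, with earlier results of these data known. Their probes were found through the RefSeq accession that the scanner files give for each probe. Of the 8 genes, 6 had a probe named this way, among 8899 genes named on the array. Vcan and Tnc matched no named probe and were not analysed here. The other 6 genes had 7 probes, each on 1 spot, and Bcan alone had more than 1 probe.

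RNA came from adult male rats (Sprague-Dawley, 200 to 250 g) and from their vestibular nuclei, the first relay of inner ear balance signals in the brainstem. The control group was sham-operated per its sample label, although the protocol text calls the control rats normal, and the other groups were sampled on the operated side 1 day and 7 days after a left labyrinthectomy, the surgical removal of the balance organ. Each group had 1 array, and the tissue of 3 rats was named for each group, so an array appears to carry pooled RNA and there is no error from animals, dissections or labellings. A difference below is therefore a difference between 2 arrays, without any test of the conditions.

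Perineuronal nets are lattices of matrix that wrap the cell body and proximal dendrites of certain neurons, many of them fast-firing. Hyaluronan chains, made at the cell surface by hyaluronan synthases, form the backbone. The lecticans (aggrecan, brevican, neurocan and versican) are chondroitin sulfate proteoglycans that bind hyaluronan at one end, link proteins of the Hapln family clamp them there, and tenascin-R crosslinks their other ends. Nets surround many large neurons of the vestibular nuclei, and the net is generally regarded as a brake on synaptic rearrangement in the adult brain.

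Brevican RNA was lower on both arrays after labyrinthectomy by the brighter of its 2 probes, and the other probe did not give the same answer at day 1. Aggrecan RNA, dim in sham, was not detected at day 1 and was detected again at day 7. Hyaluronan synthase 2 was well above background at day 1 and on neither of the other arrays. Neurocan and tenascin-R lay within 2-fold of sham on both days. The link protein Hapln1 was not detected on any array.

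Levels are given as the scanner's background-subtracted intensity, and differences as log2 of that intensity after each array was scaled to its own 75th percentile. The error given with a difference (± software error) is the scanner software's own error of the 2 spots. It covers the spots alone. A probe counted as measured in a comparison when the software flagged it as well above background, and not as saturated, on each of the 2 arrays. A gene was represented by its brightest probe, and a difference of 2-fold, a log2 difference of 1, was the size at which genes were counted.

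**Figure D1:**
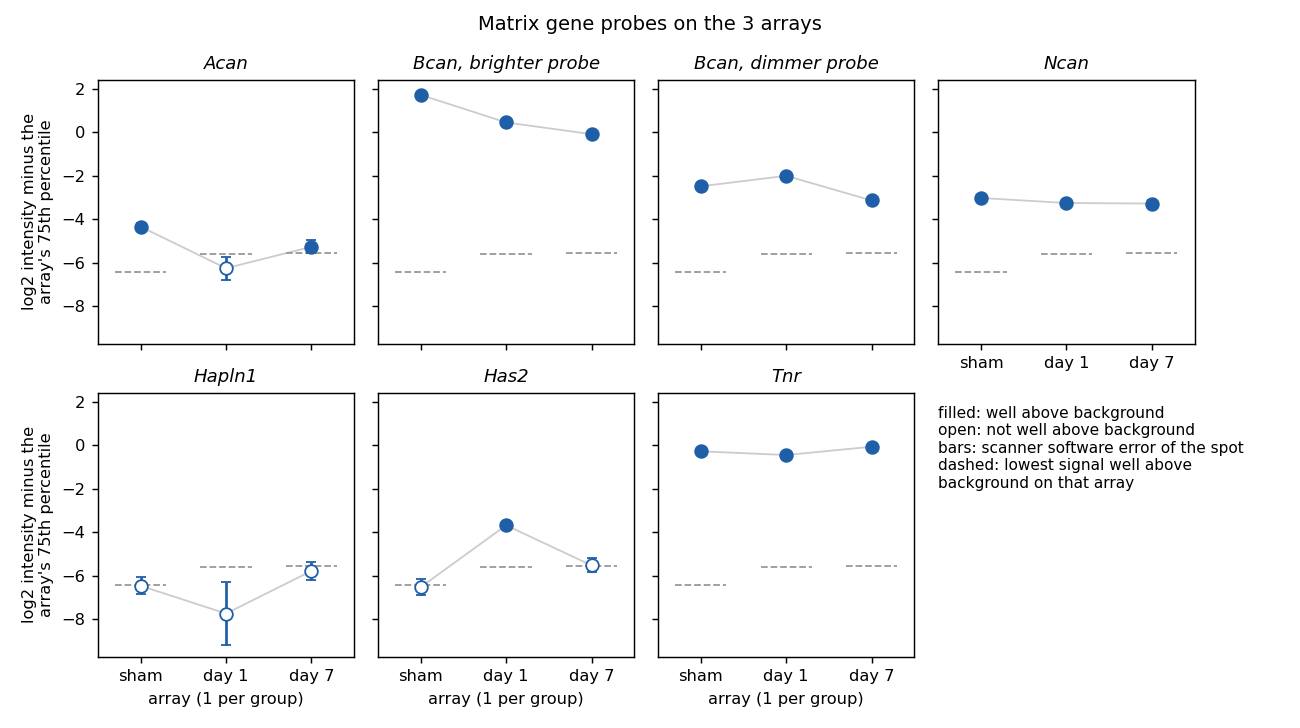
Level of each of the 7 probes on the sham, day 1 and day 7 arrays (1 array per group), as log2 intensity minus the array's 75th percentile, with the scanner software's error of the spot as the bar (smaller than the symbol for bright spots). Levels can be compared between arrays within a panel, not between panels. The brighter Bcan probe was highest in sham and lowest at day 7, Acan was below the detection line at day 1, Has2 was filled only at day 1, its day 7 point lying almost on the line, and Hapln1 was open, that is not well above background, on all 3 arrays.

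Among the lecticans, brevican (Bcan), a proteoglycan made in adult brain by glia and neurons, had the brightest signal change. Its brighter probe (A_44_P372251) read 18790.1 in sham, 7176 at day 1 and 5347 at day 7. The sham array was the highest and the day 7 array the lowest, and neighbouring values in this order differed by more than the software error. The log2 difference from sham was -1.27 ± 0.20 (software error) at day 1, or 2.41-fold lower. At day 7 it was -1.81 ± 0.20, or 3.50-fold lower. Day 7 lay 0.54 below day 1 in log2 terms (-0.54 ± 0.20).

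The dimmer Bcan probe (A_44_P359745), assigned to the same RefSeq transcript (NM_012916), read 1016 in sham, 1306 at day 1 and 643.5 at day 7. On this probe the day 1 array was the highest and the day 7 array again the lowest. The log2 difference from sham was 0.48 ± 0.21 at day 1 and -0.65 ± 0.21 at day 7. Day 7 was lower than day 1 by both probes, and the dimmer probe gave the larger difference, -1.14 ± 0.21. The array files give no probe sequence, so which part of the transcript each probe reads was not determined. The RefSeq table lists further Bcan transcripts, and any difference between them was not tested.

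The disagreement between the Bcan probes was larger than that of most genes. At day 1 against sham, the log2 differences of the 2 brightest measured probes lay 1.75 apart for Bcan, while the median gap was 0.34 over 1139 genes with such a pair, and 4.13% of these genes had a larger gap than Bcan. For day 7 against sham the Bcan gap was 1.15, the median gap 0.41 over 1121 genes, and 13.7% of genes had a larger one. Between the 2 days the Bcan gap was 0.60, the median gap 0.37 over 1082 genes, and 32.4% had a larger one. The lower brevican signal at day 7 than on the other arrays was thus shared by both probes, and the lower signal at day 1 than in sham was not.

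**Figure D2:**
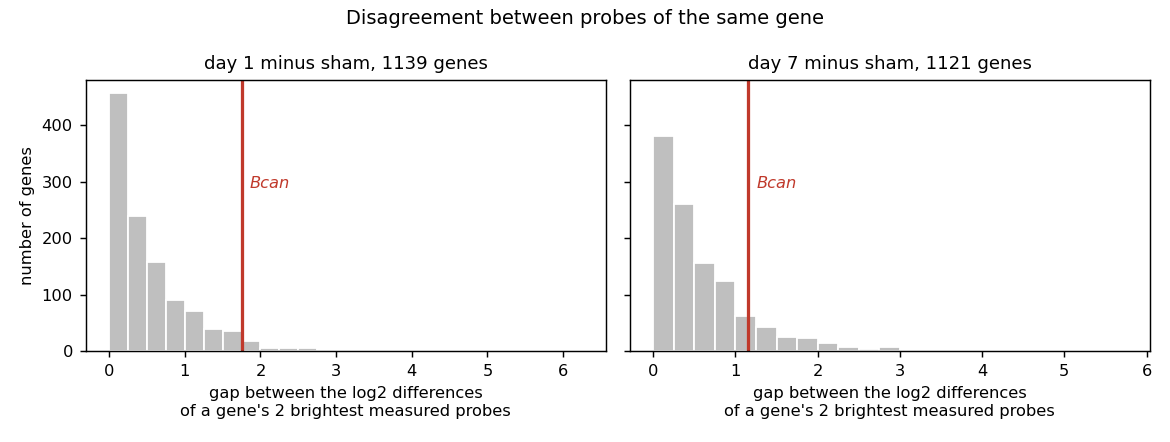
Number of genes (vertical axis) by the absolute gap between the log2 differences of their 2 brightest measured probes (horizontal axis), for day 1 minus sham over 1139 genes and day 7 minus sham over 1121 genes. The red line marks Bcan, at 1.75 for day 1 and 1.15 for day 7, to the right of most genes.

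Aggrecan (Acan), the lectican regarded as the organizer of the mature net, gave a dim signal. Its probe read 280.1 in sham, 68.3 at day 1 and 146.7 at day 7, and it was well above background in sham and at day 7. At day 1 it lay under the lowest signal that counted as well above background on that array, 109.0, so only a bound can be given: Acan was at least 2.37-fold lower at day 1 than in sham. The bound sets the sham value against that lowest signal after scaling. At day 7 it was measured at -0.93 ± 0.34 against sham, 1.90-fold lower and under the 2-fold mark (past it at -1.10 with quantile normalization, -1.27 with cyclic loess and -1.06 with median scaling), and it was at least 1.24-fold higher at day 7 than at day 1. Sham was thus the highest array and day 1 the lowest, but the bound between the 2 days is slight. In log2 terms it is 0.31, beside a software error of 0.30 for the day 7 spot alone. Genes that had only a bound of at least 2-fold lower at day 1 made up 1.0% of the 8899 named genes.

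Neurocan (Ncan), a lectican that is most abundant in the young brain and around injuries, differed little between the arrays. It read 699.4 in sham, 548.7 at day 1 and 583.3 at day 7. The log2 difference from sham was -0.23 ± 0.22 at day 1 and -0.26 ± 0.22 at day 7. The values at day 1 and day 7 were within the software error of each other (-0.03 ± 0.23).

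Hapln1, the link protein that stabilizes lecticans on hyaluronan and that nets need to form, read 64.3 in sham, 24.4 at day 1 and 102.9 at day 7. It was not well above background on any of the 3 arrays, and no difference is given.

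Has2, a hyaluronan synthase, read 61.5 in sham, 408.0 at day 1 and 123.1 at day 7. The day 1 array was the only one on which it was well above background. Has2 was at least 6.62-fold higher at day 1 than in sham and at least 3.59-fold lower at day 7 than at day 1. In log2 terms these bounds are 2.73 and -1.84, and with normexp background correction they shrank to 1.77 and -1.23. The day 7 bound rests on the spot's own signal, which the software did not flag as well above background although it lay just over the lowest signal so flagged on that array, 121.6. Has2 was not well above background in sham or at day 7, and these arrays are not compared with each other. Genes with only a bound of at least 2-fold higher at day 1 made up 1.63% of all named genes, and those at least 2-fold lower at day 7 than at day 1 made up 1.43%. The spot had no duplicate, and fibroblast and meningeal markers, whose cells can also make hyaluronan, had a summed level of 2.34 in sham, 2.89 at day 1 and 3.81 at day 7 in units of each array's 75th percentile, over 7 of 8 markers with a probe. Of these 7, all were well above background in sham, 5 at day 1 and 6 at day 7, with Lum not at day 1 or day 7 and Slc47a1 not at day 1. Igf2 was the brightest of them on each array, at 0.23 and 0.68 in log2 terms against sham. Of the 5 measured at day 1, 4 lay above sham and Dcn (-0.91) below it. The part of these cells in the Has2 difference was not tested.

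Tenascin-R (Tnr), the tenascin of the adult nervous system, made mainly by oligodendrocytes and some neurons, crosslinks lecticans in the net. It read 4704 in sham, 3843 at day 1 and 5427 at day 7. The log2 difference from sham was -0.17 ± 0.20 at day 1 and 0.21 ± 0.20 at day 7. Day 7 lay above day 1 by 0.38 ± 0.20. Myelin and oligodendrocyte markers had a summed level of 30.2 in sham, 25.3 at day 1 and 21.5 at day 7, with all 9 markers well above background on each array, while Tnr was highest at day 7.

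Over the measured genes of the group, 1 of 3 was at least 2-fold different from sham at day 1, the lower Bcan. Over the whole array 12.6% of 6292 measured genes were past 2-fold in that comparison. For day 7 against sham it was 1 of 4, again Bcan, beside 16.9% of 6261 genes, and at day 7 against day 1 it was 0 of 3 beside 11.9% of 6142 genes. With so few measured members these counts cannot be told from the background. Bcan itself lay farther from 0 than most genes, with 7.58% of measured genes farther at day 1 and 3.79% at day 7. Ncan and Tnr lay nearer to 0 than most, with 62.6% and 70.9% of genes farther from 0 at day 1 and 65.3% and 71.0% at day 7. Both comparisons against sham share the sham array, so a high or low sham spot moves both.

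Markers of the cells that make lecticans are given beside these values by their brightest probes, and their part in the Bcan difference was not tested. Astrocyte markers had a summed level of 23.4 in sham, 24.7 at day 1 and 23.2 at day 7, with 8 of 8 well above background on each array. Gja1 was saturated on all 3 arrays, and without it the sums were 12.6, 12.6 and 12.4. Single markers varied: Gfap, the astrocyte filament, was at -0.09 and -0.26 in log2 terms against sham at day 1 and day 7, and the water channel Aqp4 at 0.05 and 1.25, and S100b at 3.19 and 1.89. Neuron markers had sums of 37.3, 40.6 and 38.0 in the same order, over 10 of 11 with a probe. Without Eno2, which was saturated on all 3 arrays, the sums were 26.1, 28.0 and 26.4. The brightest of the rest were Slc32a1 (60647, 59369 and 59792) and Slc17a6 (45845, 42951 and 51832). Neither was flagged as saturated, although the Sdc4 probe was so flagged at 58163 in sham, so these sums may still be held flat by spots near saturation. The neuron sums also hide large single differences. At day 7 against sham the neuron markers ran from -5.26 for Slc6a5, the glycine transporter of inhibitory neurons, to 3.39 for Gad1, an enzyme of GABA synthesis, and 3 of 9 measured were past 2-fold, the third being Gad2 (1.30). The Gad1 value is by its brightest probe, which at day 1 was not well above background, while the dimmest of its 3 probes was, at 0.71 against sham. At day 7 the next brightest Gad1 probe gave 1.59 against sham, and the dimmest was not well above background. Oligodendrocyte precursor markers had sums of 2.41, 2.32 and 2.19, over 3 of 6 with a probe. These markers did not move together: at day 7 against sham Olig1 was at -0.52 and Sox10 at -0.15, while Cspg4 was at 0.61. In tissue RNA, fewer cells of a type and less RNA per cell cannot be told apart.

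The genes nearest in pattern to the brighter Bcan probe, by the distance between their 2 log2 differences from sham, were Rtn4 and Anxa4. They were sought among 3440 bright genes measured on all 3 arrays. Rtn4, which encodes the myelin-associated protein Nogo, was at -1.44 and -1.68 at day 1 and day 7, a distance of 0.21. The annexin Anxa4 was at -1.43 and -1.66, a distance of 0.22, and its dimmer probe gave -1.06 and -0.94. This likeness rests on 3 arrays and on the brighter Bcan probe, while the dimmer Bcan probe was at 0.48 and -0.65.

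In the rat genome each lectican gene has a link protein gene as its direct neighbour among protein-coding genes in the RefSeq table of the GRCr8 assembly: Acan beside Hapln3, Bcan beside Hapln2, Ncan beside Hapln4 and Vcan beside Hapln1. Their values are given side by side. Hapln3 read 151.4 in sham, 1713 at day 1 and 173.1 at day 7, a log2 difference from sham of 3.62 ± 0.25 at day 1, on the array where Acan was not detected. At day 7 it was at 0.20 ± 0.32. Hapln2, the link protein of nodes of Ranvier, read 9296 in sham, 15528 at day 1 and 7254 at day 7 by its brighter probe. Its log2 difference from sham was 0.86 ± 0.20 at day 1 and -0.35 ± 0.20 at day 7, while its dimmer probe gave 0.40 and 0.63. Hapln4 had no named probe.

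The wider matrix pathway was followed in 8 further lists of matrix genes and 1 list of genes of neurons that commonly carry nets, together 116 genes, of which 76 had a named probe. The lists were chosen with earlier results of these data known, so the shares below are not independent of that choice. Against sham at day 1, the 60 measured genes held 7 that were at least 2-fold higher and 4 lower, 18.3% in all. Over all measured genes 8.26% were higher and 4.37% lower. The median log2 difference was 0.00, as over all genes. With median scaling, and without scaling, the same count was 4 higher and 7 lower, and with quantile normalization 5 higher and 7 lower. The stricter filter on dim probes, which keeps fewer genes, left 2 higher and 2 lower. Day 7 stood at least 2-fold above sham for 4 of 61 genes and below it for 1, or 8.2%, beside 11.1% and 5.73% over all genes, with a median of 0.05 beside 0.05 over all genes, and with quantile normalization or cyclic loess 3 were higher and 2 lower. The 1 lower gene was Nefh, a neurofilament of the neuron list, so that 0 of 53 matrix genes were lower. Day 7 stood that far above day 1 for 9 of 59 genes and below it for 6, or 25.4%, beside 6.56% and 5.32% over all genes, with a median of 0.06 beside 0.04. The higher count was 5 with normexp and 4 with the stricter filter, and without the neuron list 9 of 51 were higher and 5 lower. Genes with only a bound of at least 2-fold made up 2.11% higher and 1.13% lower of all named genes at day 7 against sham, and 1.38% higher and 1.43% lower at day 7 against day 1.

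**Figure D3:**
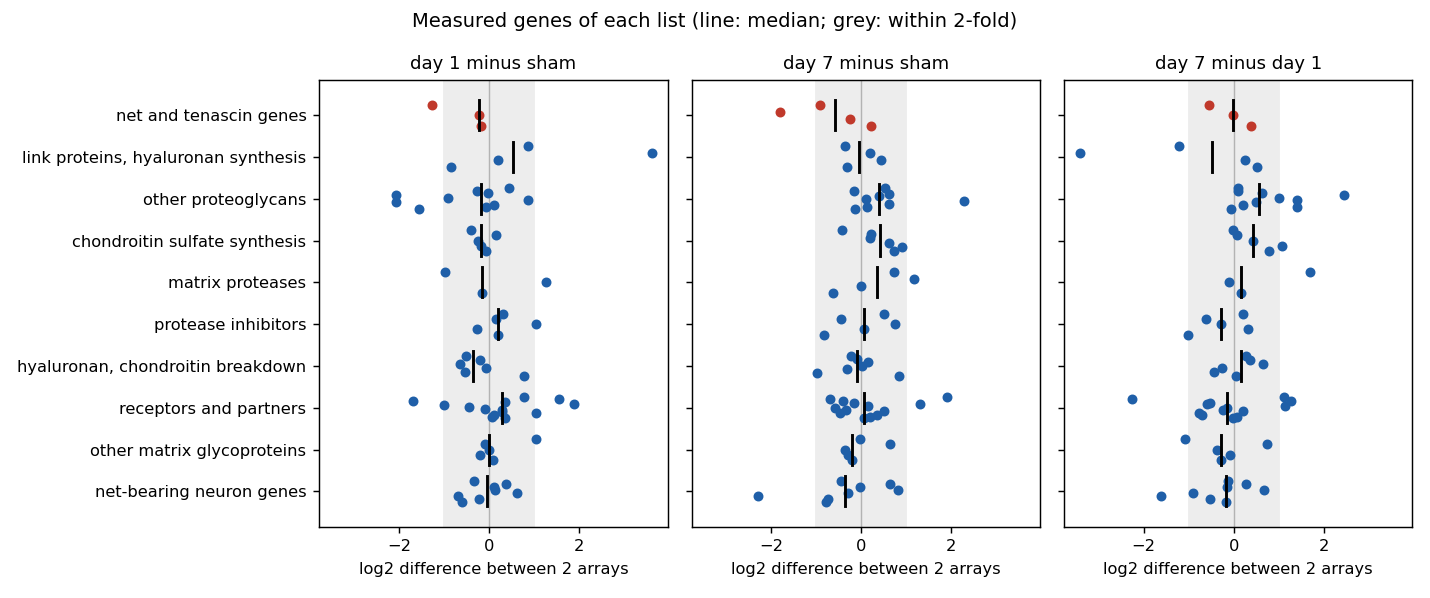
Log2 difference between 2 arrays (horizontal axis) of every measured gene of the net and tenascin group (red) and of the 9 further lists (blue), for the 3 comparisons; 1 point is 1 gene by its brightest probe, the black line is the list's median and grey marks less than 2-fold. Hapln3 stands apart at day 1 (3.62), Bcan is the red point farthest left at day 7 (-1.81), and the other proteoglycans lie mostly right of 0 at day 7 against day 1.

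Other proteoglycans were split at day 1. Among 10 genes, 3 lay at least 2-fold below sham and none 2-fold above: the glypican Gpc4 (-2.06), Cspg5 (-2.05), which encodes the brain proteoglycan neuroglycan C, and the syndecan Sdc3 (-1.55). Dcn, the small proteoglycan decorin, was at -0.91. The list's median was -0.17. On the day 7 array 1 of 9 was past 2-fold of sham, Fmod (2.27), encoding fibromodulin, and Cspg5 (0.39) and Sdc3 (-0.14) were within 2-fold of sham. Gpc4 was not well above background at day 7 and was at least 4.32-fold lower than in sham. Between the days the list had a median of 0.56, and 4 of 10 were at least 2-fold higher at day 7: Cspg5 (2.45), Sdc3 (1.41), Fmod (1.40) and Dcn (1.01). Cspg5 read 3232 in sham, 716.4 at day 1 and 4237 at day 7, so day 1 was its low array. The phosphacan gene Ptprz1 (0.11 and 0.61) and the precursor-cell proteoglycan Cspg4 (-0.01 and 0.61) were within 2-fold of sham on both days. The sum of microglia and macrophage markers was also lowest at day 1, at 1.45 in sham, 0.73 at day 1 and 1.42 at day 7 over 5 of 8. Aif1 was at -1.08 and -0.15 and Csf1r at -0.93 and 0.23. Cx3cr1 went the other way, at least 3.78-fold higher at day 1 and 3.05-fold higher at day 7 than in sham. Of these 5, Cx3cr1 in sham, Cd68 and Itgam at day 1 and Itgam at day 7 were not well above background, and P2ry12 was left out because its day 1 spot was an outlier. Choroid plexus markers summed to 0.76, 0.61 and 1.33 over 7 of 7, with Clic6 and Kl not well above background on any array and Aqp1 well above it at day 7 alone. Against sham at day 1 and day 7, Ttr, the brightest of them in sham, was at -1.20 and -0.10. Kcne2 was at 0.24 and 0.305, Folr1 at 0.75 and 1.72, and Sostdc1 at 0.10 and 1.86. Endothelial markers summed to 6.17, 7.18 and 7.64 over 5 of 7, with Pecam1 not well above background at day 7. They moved in both directions, with Kdr at 0.57 and 0.61 and Cldn5 at -0.16 and -0.38 against sham. The median of those measured was -0.09 and -0.11. Markers of the neighbouring cerebellum summed to 2.34, 2.99 and 3.65 over 5 of 7. At day 7 Calb1 alone (0.75 by its brightest probe) was well above background. Its dimmer probes gave -0.07, 0.12 (on 10 spots) and -0.39 at day 7 against sham. Zic1 was at 1.16 at day 1 and at least 6.64-fold lower at day 7 than in sham. The part of these cells in the differences of the proteoglycans was not tested.

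Enzymes that build and sulfate chondroitin sulfate were within 2-fold of sham wherever they were measured. At day 1 the median over 5 genes was -0.17, from B4galt7 (-0.40) to Chpf (0.16). At day 7 it was 0.41 over 6 genes, from B4galt7 (-0.42) to the 6-sulfotransferase Chst3 (0.91). Chst3 was at 1.08 at day 7 against day 1, the 1 of 5 past 2-fold there. The sulfotransferase Chst15, by its brighter probe, was not well above background at day 1 and was at least 5.03-fold lower there than in sham, and it was at least 7.67-fold higher at day 7 than at day 1. In this list 13 of 20 genes had no named probe.

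Hyaluronan synthesis and breakdown genes showed few differences of 2-fold. Has1 was at 0.20 at day 1 and 0.45 at day 7, and Has3 was not well above background on any array. Ugdh, which makes the sugar precursor of hyaluronan and chondroitin, was at -0.84 and -0.32. Of the enzymes that degrade hyaluronan and chondroitin, none of 6 at day 1 and none of 7 at day 7 was past 2-fold of sham. Their medians were -0.35 and -0.10. Hyal2 (-0.54 and -0.98) was the lowest at day 7, and Hyal3 (0.77 and 0.83) the highest on both days.

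Most proteases that cut lecticans were too dim to measure or had no named probe. Mmp2, a gelatinase, was at 1.27 at day 1 and 1.17 at day 7 against sham, the 1 member past 2-fold of 3 and of 4 measured. Mmp14, which activates it, was at -0.98 and 0.72, and at 1.70 at day 7 against day 1. Plat, tissue plasminogen activator, on 10 spots, was not well above background at day 1 and was at least 2.78-fold lower there than in sham, and at day 7 it was at -0.62. Adamts5, an aggrecanase, was detected only at day 7, at least 2.07-fold higher than in sham. Mmp9, Mmp3 and Adamts1 were not well above background on any array. Among the inhibitors Timp1 was at 1.04 at day 1 and 0.75 at day 7 on 10 spots. Timp3 was at 0.20 and -0.82, and Timp2 (-0.26 and 0.06) was close to sham.

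Among 14 measured receptors and partners of the matrix, 3 lay at least 2-fold above sham at day 1 and 1 lay at least 2-fold below. Higher were the integrin subunit Itgb3 (1.89), Cntn1 (1.56), the adhesion molecule contactin-1 that binds tenascin-R, and Rtn4r (1.05), the Nogo receptor, which also binds chondroitin sulfate. Egfr was at -1.68 by its brighter probe and -0.21 by a probe on 10 spots. At day 7 Cd44, a hyaluronan receptor, was at 1.90 and Itgb3 at 1.30, and the other 11 of 13 were within 2-fold. Cntn1 read 6393 in sham, 17383 at day 1 and 3939 at day 7, and it was the lowest of the list at day 7 against day 1 (-2.26). The chondroitin sulfate receptors Ptprs (0.29 and -0.47) and Ptprf (0.30 and 0.50), phosphatases of the axon membrane, were within 2-fold of sham on both days.

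Of the other matrix glycoproteins, fibronectin (Fn1) was at 1.05 at day 1 by its brighter probe and 0.29 by a probe on 10 spots. At day 7 these probes gave -0.04 and a signal not well above background. Sparcl1 (-0.20 and -0.29), Sparc (0.01 and -0.35) and Vtn (0.09 and -0.21) lay close to sham. Reln was at -0.09 and 0.64.

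Genes of neurons that commonly carry nets were near sham at day 1, with 0 of 8 past 2-fold and a median of -0.05. At day 7 the median was -0.37 and 1 of 8 was past 2-fold, the neurofilament Nefh (-2.30). The calcium-binding protein Pvalb was at -0.23 and -0.74, and the fast potassium channel gene Kcnc1 (0.12 and -0.03) stayed within 2-fold.

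**Figure D4:**
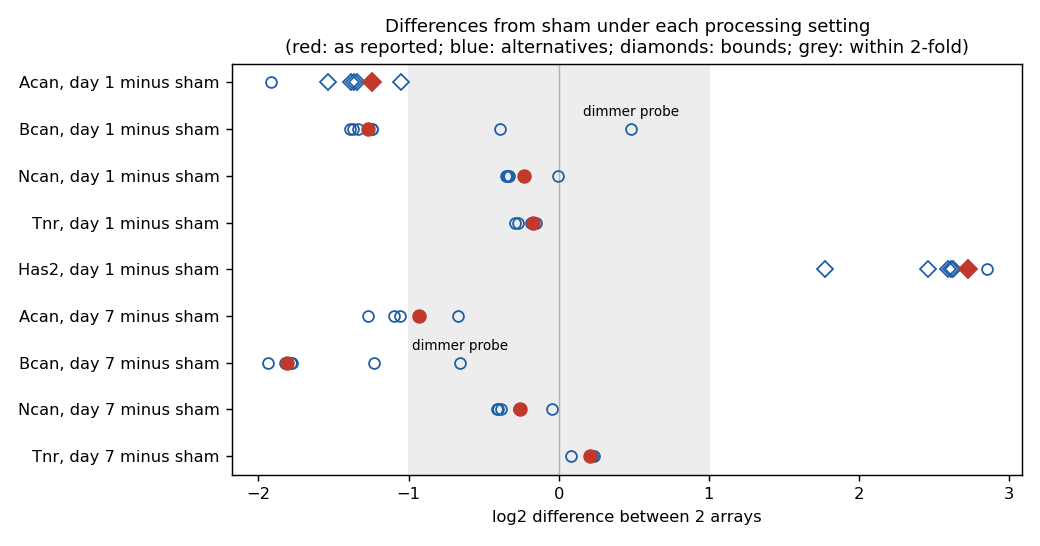
Log2 difference from sham (horizontal axis) of each member gene at day 1 and day 7 under every processing setting; red is the value as reported, blue an alternative, diamonds are bounds and grey marks less than 2-fold. Bcan at day 1 is the 1 row whose points lie on both sides of 0, from -1.39 to 0.48, the latter being the dimmer probe.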

How the data were processed

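The authors deposited 3 Agilent Feature Extraction files, read with version 10.7.3.1 per the file headers, for 1-colour (Cy3) arrays. Per the file headers the arrays shared 1 slide (sham at position 4, day 1 at 3, day 7 at 2), so position and group cannot be told apart. The deposited intensity is linear and background-subtracted by the scanner software, and it was not scaled between arrays. Other deposited columns flag outliers, saturation and detection per spot. The authors' series table of intensity equalled the processed signal within 0.1 percent for at least 99.7% of values.

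Computed here: log2 intensity minus each array's 75th percentile (5692 in sham, 5242 at day 1, 5676 at day 7), without outlier spots. Names came from RefSeq accessions (10768 of 41012 probes). Coordinates are not given because the array design and the reference are of different builds. Bounds used the lowest signal well above background (66.9, 109.0 and 121.6), or the undetected spot's signal where that was larger. Spots well above background made up 81.3%, 77.3% and 76.9%. Genes named are the members, the highest and lowest 2 and those past 2-fold of each list, preset markers, and the nearest 2 in pattern, with some left out for brevity. The members and lists were chosen with earlier results of these data known. Alternatives used limma 3.58.1; normexp took the spots' median signals, as no mean signal was in the files. The steps were tested on simulated data.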

Additional observations from a re-analysis of the deposited data

Results flagged for a closer look

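The dimmer Bcan probe lay above sham at day 1 (log2 difference 0.48) and below it at day 7 (-0.65), each by more than the software error of its spots. It was the 1 member probe measured on all arrays whose differences pointed in opposite directions on the 2 days in this way. The difference between the days was not tested, since each rests on 1 array.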

How the results depend on the processing

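Over 11 alternatives, 14 differences of Acan, Bcan, Ncan, Tnr and Has2 gave 135 values, of which 120 moved by less than the software error, 14 by more, and 1 reversed. Some settings could not move a value, such as the mean of probes for a gene with 1 probe, so these counts do not measure stability. The reversed value was Bcan at day 1 against sham by its dimmer probe (0.48), and the mean of both probes gave -0.39. The dimmer probe and the mean gave -0.65 and -1.23 for Bcan on day 7 against sham, and -1.14 and -0.84 between the days. For Acan against sham, cyclic loess gave -1.54 (bound) at day 1 and -1.27 at day 7, normexp gave -1.05 (bound) at day 1, and no filter on dim probes gave -1.92 at day 1 and 0.99 at day 7 against day 1. For Has2, cyclic loess and normexp lowered the bound at day 1 to 2.46 and 1.77, and normexp gave -1.23 at day 7 against day 1. Ncan at day 1 was at -0.0048 with normexp. The stricter filter on dim probes left values for Bcan and Tnr alone, and the next brightest probe for Bcan alone.

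The number of measured members past 2-fold at day 1 was 4 with no filter on dim probes and 0 by the next brightest probe or the mean of probes. For day 7 against sham it was 2 with quantile normalization, cyclic loess, median scaling or no filter, and 0 by the next probe. Between the days it was 2 with no filter and 1 by the next probe. The members added with no filter were Acan, Hapln1 and Has2 at day 1, Has2 at day 7, and Hapln1 and Has2 between the days. Each was not well above background on at least 1 array of the comparison, and Hapln1 on none of the 3 arrays. The share of all genes past 2-fold was not computed for these settings. Of the genes of the 9 further lists, those higher at day 1 numbered 4 with median scaling or no scaling, 2 with the stricter filter and 0 by the next probe. Those lower at day 1 numbered 7 with quantile normalization, median scaling, no scaling or no filter, 2 with the stricter filter and 0 by the next probe. At day 7 against sham, 2 were higher with the stricter filter and 0 by the next probe, and 2 were lower with quantile normalization, cyclic loess or median scaling and 4 with no filter, and 0 without the list of net-bearing neuron genes, an alternative chosen after seeing the data. Between the days, 5 were higher with normexp, 4 with the stricter filter and 0 by the next probe, and 3 were lower with the stricter filter and 1 by the next probe. The next-probe and stricter settings hold fewer genes; for the others the cause was not tested. Without scaling, the median over all genes shifted to -0.12 for day 1 against sham and to 0.15 between the days. The dim end limits Acan, Has2 and Hapln1. The lowest signal well above background was higher on the arrays after surgery than in sham, but Has2 and Hapln1 were not well above background in sham either. The intensities of the negative control spots varied most in sham, with a standard deviation of 36.7 beside 15.3 at day 1 and 17.2 at day 7. No paired analysis was possible because each group had 1 array.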
